A study of Mus musculus with 9 samples.

Results

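Per the study, F1 fibroblasts of the mouse knee expressed the sublining markers Thy1 and Cd34. Here the rule marks them by Anxa8, Slurp1 and Ociad2, genes that were also detected in lining cells (below). F1 cells were gated cell by cell from 9 single-cell RNA-seq libraries, and 308 cells were members out of 4788 cells kept in all. A kept cell had at least 500 detected genes, at least 1000 unique molecular identifiers (UMIs, each counting 1 captured RNA molecule) and at most 10% mitochondrial UMIs. Of these, 2261 cells were eligible: they had at least 1 UMI of Cd34, a surface marker of sublining fibroblasts, and none of Dpp4 (universal fibroblasts), Clic5 (lining fibroblasts), Ptprc (leukocytes) or Pecam1 (endothelium). Members were chosen by measured values, the UMIs of these genes in the same cells. A member had at least 2 of the 3 F1 genes detected, and more of them than of the 3 genes of each other panel: F2 (Dkk2, Cxcl12, Gas6), F3 (Acvr2a, Cxcl1, Col15a1), F5 (C7, Fmo2, Kitl) and F6 (Ccl11, Smoc2, Hsd11b1). The same rule gave 889 F2, 102 F3, 34 F5 and 27 F6 cells, while 668 eligible cells tied between panels and 233 reached 2 genes of no panel.

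All mice were Gdf5-Cre;Tom;Pdgfrα-H2BGFP, 11 to 12 weeks old. The study's figure captions give 11 weeks for steady state and 12 weeks for injured mice, so this age difference and injury cannot be told apart. Tomato (Tom) permanently marks descendants of cells that expressed Gdf5-Cre, such as those of the embryonic joint interzone, and a nuclear green fluorescent protein (GFP) is driven by the Pdgfrα promoter. Live cells released from knees by collagenase type IV were sorted into Tom+ (Gdf5-lineage) and Tom-GFP+ (other Pdgfrα-expressing) populations, in steady state or 6 days after joint surface injury, in which the right knee was opened and the cartilage of the trochlear groove scratched through its full thickness. There were 2 Tom+ and 1 Tom-GFP+ steady-state libraries, and 4 Tom+ and 2 Tom-GFP+ injured libraries. The steady-state group had no sham surgery, so the effects of opening the joint and of scratching the cartilage cannot be told apart. Per the study, the Tom+ libraries were from separate mice and the Tom-GFP+ libraries from mice matched to them.

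Annexins, the family of Anxa8, are cytosolic proteins that bind phospholipid membranes when calcium is present. Slurp1 encodes a small secreted protein of the Ly6/uPAR fold, known from skin, that modulates nicotinic acetylcholine receptors, and Ociad2 encodes an OCIA-domain protein of mitochondria and endosomes. Sublining fibroblasts lie under the lubricin-producing lining, where they build the loose matrix around vessels and nerves, and they respond to joint damage with matrix production and inflammatory signals.

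Anxa8 (ENSMUSG00000021950) lies at chr14:34085981-34100571 on the plus strand, Slurp1 (ENSMUSG00000022596) at chr15:74724318-74728034 on the minus strand and Ociad2 (ENSMUSG00000029153) at chr5:73322199-73341028 on the minus strand (GRCm38, GENCODE vM21). The gene with the largest increase over F2 cells among those named outside the rule was Sbsn (ENSMUSG00000046056, chr7:30751471-30756134, plus strand), which encodes suprabasin, a secreted protein first described in the upper epidermis. RefSeq promoters (GRCm38.p6, 250 bases before to 50 bases after the start) were matched for Anxa8, Ociad2 and Sbsn and are shown because these genes define or lead the population. They are at chr14:34085729-34086028 (plus), chr5:73338898-73339197 (minus) and chr7:30751221-30751520 (plus), written 5′ to 3′ along each gene's strand. Capitals mark the pattern TGANTCA (N is any base), which is wider than the core TGAGTCA bound by AP-1 (Fos and Jun dimers). As a pattern it matches the same places on both strands. It is shown because genes for AP-1 subunits were measured at lower levels in members (below).
Anxa8 promoter: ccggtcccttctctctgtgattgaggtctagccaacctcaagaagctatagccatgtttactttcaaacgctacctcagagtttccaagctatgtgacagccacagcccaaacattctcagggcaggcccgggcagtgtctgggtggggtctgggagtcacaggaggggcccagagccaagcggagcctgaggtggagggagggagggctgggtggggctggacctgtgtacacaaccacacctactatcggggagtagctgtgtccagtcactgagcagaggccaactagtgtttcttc
Ociad2 promoter: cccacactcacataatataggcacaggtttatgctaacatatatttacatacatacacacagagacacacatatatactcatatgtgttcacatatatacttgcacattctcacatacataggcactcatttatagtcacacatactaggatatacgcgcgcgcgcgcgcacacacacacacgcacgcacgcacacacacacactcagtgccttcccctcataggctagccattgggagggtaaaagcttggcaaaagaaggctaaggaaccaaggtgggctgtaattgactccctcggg
Sbsn promoter: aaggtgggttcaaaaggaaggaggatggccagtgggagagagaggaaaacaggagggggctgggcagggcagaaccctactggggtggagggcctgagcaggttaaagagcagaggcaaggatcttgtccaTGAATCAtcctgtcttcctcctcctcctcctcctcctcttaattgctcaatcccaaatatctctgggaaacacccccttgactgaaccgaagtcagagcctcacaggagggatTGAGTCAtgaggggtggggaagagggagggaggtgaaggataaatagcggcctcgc
The pattern occurred at 119 (TGAATCA) and 6 bases (TGAGTCA) before the start of Sbsn and in neither of the other windows. Only the stretch at 6 bases has the AP-1 core. Among all 32851 RefSeq promoters of this length, 2565 held it (7.81%), so its presence is a description of the letters and no evidence of binding.

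Members made up a larger share of the eligible cells after injury in some libraries and not in others. In the Tom+ steady-state libraries they were 7 of 179 (3.91%, exact 95% binomial interval 1.59% to 7.89%) and 24 of 273 (8.79%, 5.71% to 12.8%), and in the Tom-GFP+ steady-state library 7 of 238 (2.94%, 1.19% to 5.97%). In the Tom+ injured libraries 1 to 4 they were 145 of 399 (36.3%, 31.6% to 41.3%), 51 of 303 (16.8%, 12.8% to 21.5%), 17 of 192 (8.85%, 5.24% to 13.8%) and 20 of 233 (8.58%, 5.32% to 12.9%). In the Tom-GFP+ injured libraries they were 24 of 294 (8.16%, 5.30% to 11.9%) and 13 of 150 (8.67%, 4.70% to 14.4%). The intervals cover counting error only. Tom+ injured replicate 1 alone held 145 of the 308 members, and the intervals of the other libraries overlapped that of Tom+ steady-state replicate 2. For Tom+ injured replicate 2 they met only at the edge, with its lower end at 12.7965% and the steady-state upper end at 12.7981%.

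**Figure D1:**
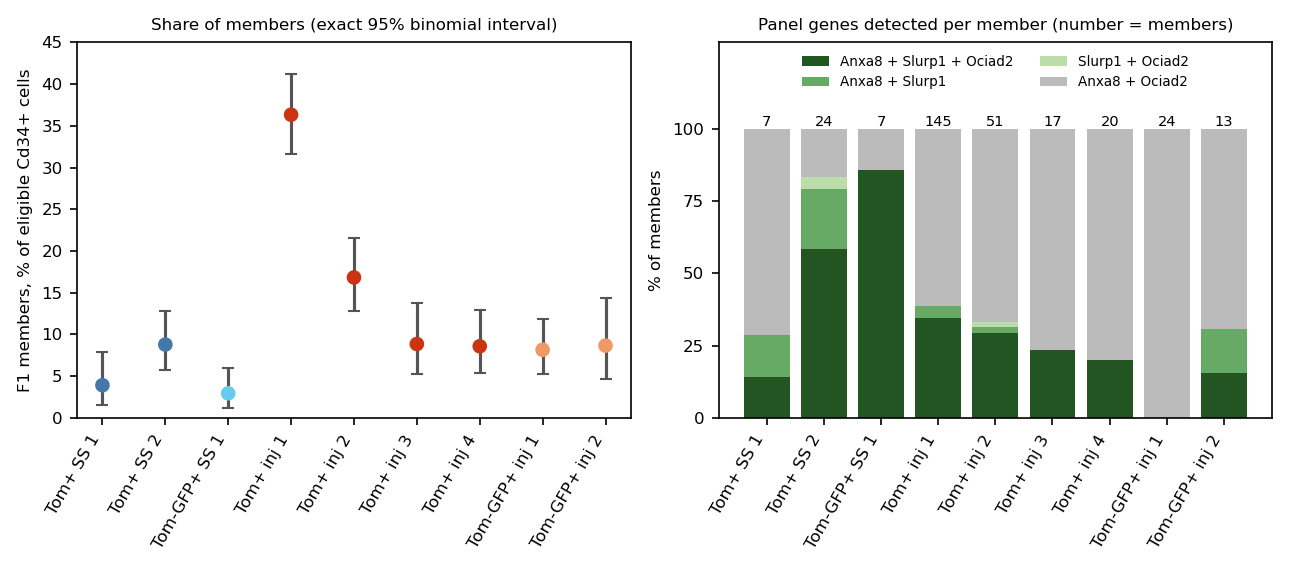
Left, F1 members as a percent of eligible Cd34+ cells in each library (points, with exact 95% binomial intervals); right, percent of members with each combination of gate genes, with the number of members above each bar. SS is steady state and inj injured; Tom+ injured replicate 1 stands highest at 36.3%, and Slurp1 (green) is in 20 of 24 members of Tom+ steady-state replicate 2 and in 0 of 24 of Tom-GFP+ injured replicate 1.

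The gate genes themselves moved with state, so the share is given with no test. Among eligible cells, Anxa8 was detected in 13.9% to 31.1% per steady-state library and 33.0% to 88.7% per injured library, and Ociad2 in 12.2% to 25.6% and 42.5% to 77.7%. Slurp1 was detected in 5.03% to 13.9% in steady state and 0.340% to 14.5% after injury. Depth moved with state too: median UMIs per eligible cell were 7291.5 to 8272 in steady state and 11019 to 21492 after injury. When each cell was thinned to 5000 UMIs and shallower cells were left out, the shares were 6.67% and 8.23% (Tom+ steady state), 4.27% (Tom-GFP+ steady state), 31.8%, 14.1%, 9.89% and 5.85% (Tom+ injured), and 6.75% and 6.40% (Tom-GFP+ injured). Both Tom-GFP+ libraries and Tom+ injured replicate 4 then lay inside the steady-state range of 4.27% to 8.23%, and the other 3 Tom+ injured libraries above it. Thinned Anxa8 detection overlapped as well, at 14.4% to 28.6% in steady state and 23.9% to 71.4% after injury, while thinned Ociad2 detection did not, at 8.56% to 19.9% and 24.5% to 45.7%.

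The name F1 held unequally in the steady and injured states, because Slurp1 was found in most steady-state members and in fewer injured ones. All 3 gate genes were detected in 21 of 38 steady-state members (55.3%) and in 75 of 270 injured members (27.8%). A further 185 injured members (68.5%) had Anxa8 and Ociad2 without Slurp1, against 10 in steady state (26.3%). By library, Slurp1 was found in 2 of 7, 20 of 24 and 6 of 7 steady-state members (Tom+ 1 and 2, then Tom-GFP+), in 56 of 145, 17 of 51, 4 of 17 and 4 of 20 Tom+ injured members, and in 0 of 24 and 4 of 13 Tom-GFP+ injured members. In Tom-GFP+ injured replicate 1, 0 of 24 allows a share of up to 12.5% of cells with a Slurp1 UMI (3 counts of the total), which does not limit the share of cells that express it. The injured cells are therefore called members by the rule below, and results were also computed for cells with all 3 genes.

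All 3 gate genes were also detected in the lining. Cells with Clic5 and Prg4, which the rule bars, had Anxa8 in 64.8% and Ociad2 in 63.3% of 660 injured cells, at a mean of 17871 UMIs per cell. Slurp1 was detected in 15.2% of these cells and in 17.6% of 68 such steady-state cells (mean 14251 UMIs per cell). Those 68 cells had Anxa8 in 51.5% and Ociad2 in 35.3%. All of their shares were above those of eligible steady-state cells given above, which were shallower. The injured lining shares of Anxa8 and Ociad2 lay inside the ranges of eligible injured cells, and that of Slurp1 lay above its range. In 70 injured cells with Ptprc, at a mean of 9375 UMIs, the shares of Anxa8 and Ociad2 were 7.14% and 4.29%, and that of Slurp1 was 1.43%. In 38 injured cells with Pecam1, at a mean of 15306 UMIs, the shares were 18.4% for Anxa8, 15.8% for Ociad2 and 5.26% for Slurp1. At the edge of the gate, injured members with exactly 2 F1 genes (195 cells) averaged 10.8 Anxa8 UMIs and 0.144 Slurp1 UMIs, and injured cells just outside because of a tie (348 cells) averaged 7.87 and 0.0632. In steady state the members with 2 F1 genes (17 cells) averaged 10.9 Anxa8 UMIs and the tied cells (37 cells) 5.78.

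Within members, expression was summed per library and is given as counts per 1000000 UMIs of those cells (CPM). Anxa8 was at 729.8 (Tom+ steady-state replicate 1), 1603 (replicate 2) and 1006 CPM (Tom-GFP+) in steady state. After injury it was at 756, 759, 487 and 715 CPM in Tom+ and at 135 and 599 CPM in Tom-GFP+ libraries. Slurp1 was at 52.1, 792 and 266 CPM in steady state, then at 72.3, 82.7, 53.4 and 32.1 CPM in Tom+ and at 0 and 123 CPM in Tom-GFP+ injured libraries. For Ociad2 the lowest, median and highest library levels over the 9 libraries were 130.3, 190 and 264 CPM. Anxa8 and Slurp1 were highest in Tom+ steady-state replicate 2 and lowest in Tom-GFP+ injured replicate 1, and Ociad2 varied least.

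Markers of the sorted lineages and of the sublining were detected in members, and so were markers of the lining. The tdTom transgene was detected in 85.7% to 100% of members of each Tom+ library and in 7.69% to 16.7% of those of each Tom-GFP+ library. Thy1, the sublining surface marker, was detected in 53.8% to 85.7% of members per library, against 61.9% to 76.0% of eligible cells, and its share was higher in members in 5 of 9 libraries. Pdgfra was detected in 70.8% to 100% of members. Prg4, which encodes lubricin and marks the lining, was detected in 57.1% to 100% of members against 34.0% to 92.5% of eligible cells, and its share was higher in members in 8 of 9 libraries. Endothelial markers summed to 0 to 8.26 CPM per library, red blood cell markers to 0 to 1.65 CPM and immune markers to 0 to 26.1 CPM, with Lyz2 the most abundant. Other lists had higher sums in members: 1092 to 6120 CPM for 9 lining genes (Prg4 the most abundant), 206 to 4673 CPM for 9 tenocyte genes (Comp), 0 to 1450 CPM for 8 osteoblast genes (Spp1), 14.8 to 938 CPM for 8 mural genes (Acta2) and 0 to 325 CPM for 8 chondrocyte genes (Acan). The part of such cells or their RNA in the members' values was not tested. Libraries shared at most 2 cell barcodes in a pair, and 10 of 36 pairs shared any.

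Against the other gated classes, members had more Sbsn, Crabp2 and glycolytic enzyme RNA and less complement and immediate early RNA. UMIs were summed per library and class where at least 10 cells were present. The 7 libraries with an F1 sum were used, which gave 7 F1, 7 F2, 4 F3 and 1 F5 sums and no F6 sum, with library as a block and the 20 rule genes left out. Only Tom+ steady-state replicate 2 among them was in steady state, and every F3 and F5 sum came from an injured library. The contrast therefore describes mostly injured cells. The classes were gated on these same cells, so the contrast describes what goes with the gate. At an adjusted p under 0.05 in edgeR's quasi-likelihood test, 863 of 9086 genes (9.5%) differed between members and the mean of the other classes, with 488 higher (5.37%) and 375 lower (4.13%) in members. DESeq2 gave 301 higher and 433 lower, so the balance of directions depended on the tool. Against F2 alone, the largest class, 1635 genes (18%) differed, 694 higher (7.64%) and 941 lower (10.4%), and 337 and 323 of these were called in both contrasts.

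The mean over classes gave F3 and F5 the same weight as F2, although the only F5 sum was 17 cells of Tom-GFP+ injured replicate 1. Log2 fold changes of the 12 named higher genes were 3.53 to 5.71 in that contrast. Without Tom-GFP+ injured replicate 1 all were smaller: for example 2.65 instead of 5.71 for Crabp2, 2.23 instead of 5.17 for Sbsn, 1.13 instead of 4.14 for Aqp1 and 0.75 instead of 3.99 for Cks2, and the calls of Il1rl1, Inhba, Cks2 and, among the lower genes, Gm2564 (log2 -3.28) were lost. Without Tom+ injured replicate 2 the calls of Sbsn (5.09), Inhba (4.16) and 1200007C13Rik (-3.70) were lost in that contrast, and without Tom+ steady-state replicate 2 or Tom+ injured replicate 4 those of Inhba (4.27 and 4.32) and Cks2 (3.96 and 4.08). Values against F2 are therefore printed below. With all 3 gate genes required of a member, AA467197 (log2 3.38), Inhba (1.65), Aqp1 (1.09) and Dok5 (1.96) were the named genes that still passed in the mean contrast. Sbsn (log2 3.06, adjusted p = 0.0596), Crabp2 (2.93, adjusted p = 0.237), Il1rl1 (0.84, adjusted p = 0.368), Slc16a3, Cks2, Pdgfc, Msmo1, Tnfrsf23, Apoe (-4.92, adjusted p = 0.15), Ccl19 (-8.36, adjusted p = 0.451), Gm2564, Lsamp and Ntf3 did not in edgeR's quasi-likelihood test, and the other lower genes were not among those tested. All 24 named genes passed against F2 in the same direction, and against F3, where 135 genes (1.49%) passed, 51 higher (0.561%) and 84 lower (0.924%), so did 2 of the 12 higher and 7 of the 12 lower genes.

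Sbsn was at 235, 670 and 1021 CPM in members of Tom+ steady-state replicates 1 and 2 and the Tom-GFP+ steady-state library. In Tom+ injured members it was at 209, 300.0, 213 and 293 CPM, and in Tom-GFP+ injured members at 256 and 357 CPM. The other gated cells of the same libraries, pooled, ranged from 14.4 to 80.3 CPM, so members were higher in every library (log2 fold change against F2 2.94, SE 0.43, adjusted p = 0.0013, edgeR's quasi-likelihood test). Sbsn was detected in 17 of 24 members of Tom+ steady-state replicate 2, against 4.37% of the other gated cells there.

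Crabp2, which encodes a protein that carries retinoic acid to the nucleus, was at 274, 528 and 148 CPM in steady-state members (Tom+ 1 and 2, then Tom-GFP+). After injury it was at 718, 456, 530.0 and 883 CPM in Tom+ and at 454 and 1403 CPM in Tom-GFP+ members. Other gated cells had 5.85 to 312 CPM, and members were higher in each library (log2 2.64 against F2, adjusted p = 0.0042, edgeR's quasi-likelihood test). The other 10 named higher genes had log2 fold changes of 1.17 to 2.28 against F2. Signalling genes among them were Inhba (the activin A subunit, 2.28), Il1rl1 (the receptor of interleukin 33, 2.23), Pdgfc (a platelet-derived growth factor, 2.10) and Tnfrsf23 (a decoy receptor, 1.19). Transport and metabolism were represented by Slc16a3 (a lactate exporter, 2.11), Msmo1 (a sterol-synthesis enzyme, 1.42) and Aqp1 (a water channel, 1.33), beside AA467197 (1.90), Dok5 (an adaptor of receptor tyrosine kinases, 1.60) and Cks2 (a cyclin-dependent kinase partner, 1.17). Il1rl1 was at 0, 3.83 and 0 CPM in the 3 steady-state libraries and at 16.1 to 148 CPM in 5 injured libraries, with Tom-GFP+ injured replicate 1 the highest of all.

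**Figure D2:**
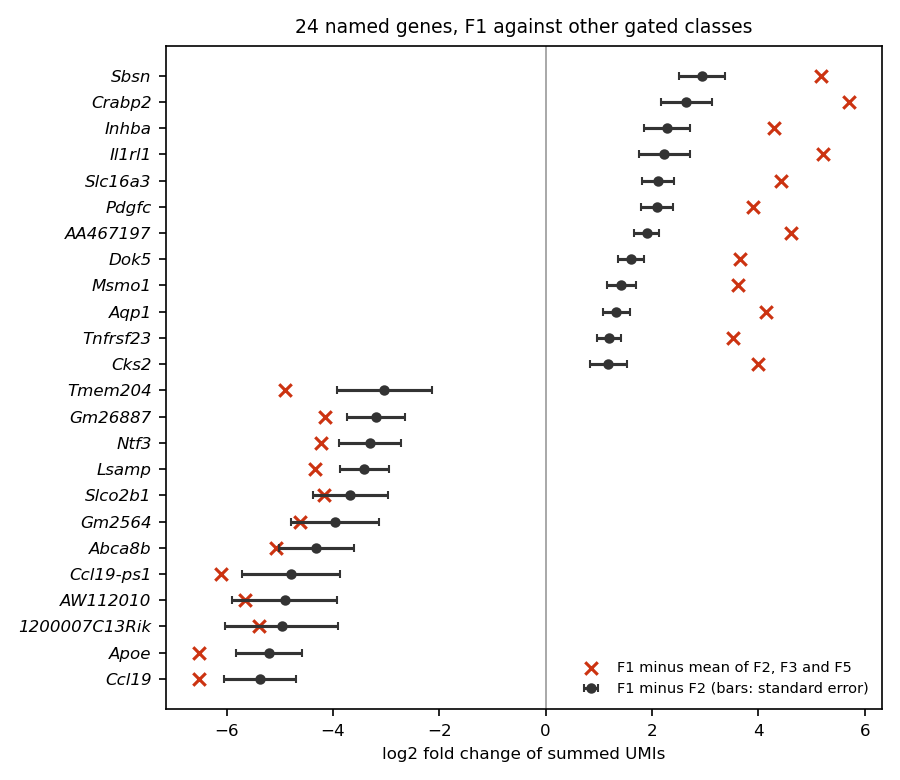
Log2 fold change of the 24 named genes in F1 members against F2 (circles, bars are standard errors) and against the mean of F2, F3 and F5 (crosses). Against F2 the 12 higher genes run from 1.17 to 2.94 and the 12 lower from -5.37 to -3.03, and the crosses lie farther from 0 for every gene.

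Among the 12 lower genes, Apoe, which encodes the lipid carrier apolipoprotein E, was at 26.1, 0 and 0 CPM in steady-state members, at 1.85, 1.10, 3.56 and 24.1 CPM in Tom+ injured and at 0 and 4.10 CPM in Tom-GFP+ injured members. Other gated cells had 43.0 to 525 CPM. Members and other cells did not overlap (log2 against F2 -5.20). Ccl19 (ENSMUSG00000071005), a chemokine that draws T cells and dendritic cells, had 5 UMIs over the members of the 7 libraries fitted and 976 in the other gated cells. Its pseudogene Ccl19-ps1 and the long non-coding RNAs AW112010 and 1200007C13Rik had no UMI in those members. Against a floor of 3 UMIs over all 6324714 member UMIs they were at least 19.7-fold, 22.3-fold and 19.5-fold lower than in the other gated cells. Of these member UMIs 3777331 were in Tom+ injured replicate 1, so the limits rest largely on that library. Limits without it were not computed. Ccl19, Ccl19-ps1 and the neighbouring Gm2564 belong to a duplicated locus, and how shared reads were assigned to them is uncertain. The remaining named genes were Abca8b (a lipid transporter, 1 member UMI), Tmem204 (1 UMI), Slco2b1 (an organic anion transporter, 2 UMIs), Ntf3 (neurotrophin 3, 3 UMIs), Gm26887 (4 UMIs) and Lsamp (a neuronal adhesion molecule, 7 UMIs).

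Complement genes were lower together. Of 14 in the list, 12 were tested, with 0 higher and 7 lower and a median log2 fold change of -2.36, beside 0.11 for all genes tested. Against F2, 8 were lower, with a median of -2.03 beside -0.03. C3, the central component, was at 52.1, 142 and 118 CPM in steady-state members, at 36.3, 32.0, 117 and 153 CPM in Tom+ injured and at 29.7 and 32.8 CPM in Tom-GFP+ injured members. In the other gated cells it was at 133 to 1166 CPM, and members were lower in every library (log2 -3.41 against F2, SE 0.41, adjusted p = 0.000353, edgeR's quasi-likelihood test). C4b (-3.37), Cfb (-2.83), C1s1 (-2.63), C1ra (-2.28) and Serping1 (the C1 inhibitor, -2.16) were lower too. The list summed to 459 to 3555 CPM in members and 1209.5 to 9109.9 CPM in other cells.

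Glycolytic enzymes were higher, with 11 of 14 tested higher and 0 lower (median 1.10, and 0.75 with the same counts against F2). Eno1 (enolase) was at 391, 540.0 and 296 CPM in steady-state members and at 715 to 2423 CPM in injured ones, and other gated cells had 242 to 860 CPM (log2 1.19 against F2). Pgk1 (1.00), Gapdh (0.93), Pgam1 (0.91) and Pkm (0.89) followed. The summed list was higher in members in 9 of 9 libraries, from 3654 against 2903 CPM in the Tom-GFP+ steady-state library to 17289.8 against 7849.9 CPM in Tom-GFP+ injured replicate 1. Members were deeper cells than the eligible cells in general (median 9521 to 25398 UMIs against 7291.5 to 21492), and the part of depth in these levels was not tested.

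Immediate early and heat shock genes, which respond within minutes to stimulation and to tissue digestion, were lower. Of 14 tested, 0 were higher and 9 lower (median -1.56, and 9 lower against F2, median -1.44). Fos was at 756, 869 and 666 CPM in steady-state members, at 370.4, 458, 818 and 369 CPM in Tom+ injured and at 360.0 and 152 CPM in Tom-GFP+ injured members, against 866 to 2678 CPM in other gated cells (log2 -2.11 against F2). Fosb (-2.19), Atf3 (-1.88), Egr1 (-1.85) and Jun (-1.44) were lower as well, and all 5 were lower in members in 9 of 9 libraries.

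**Figure D3:**
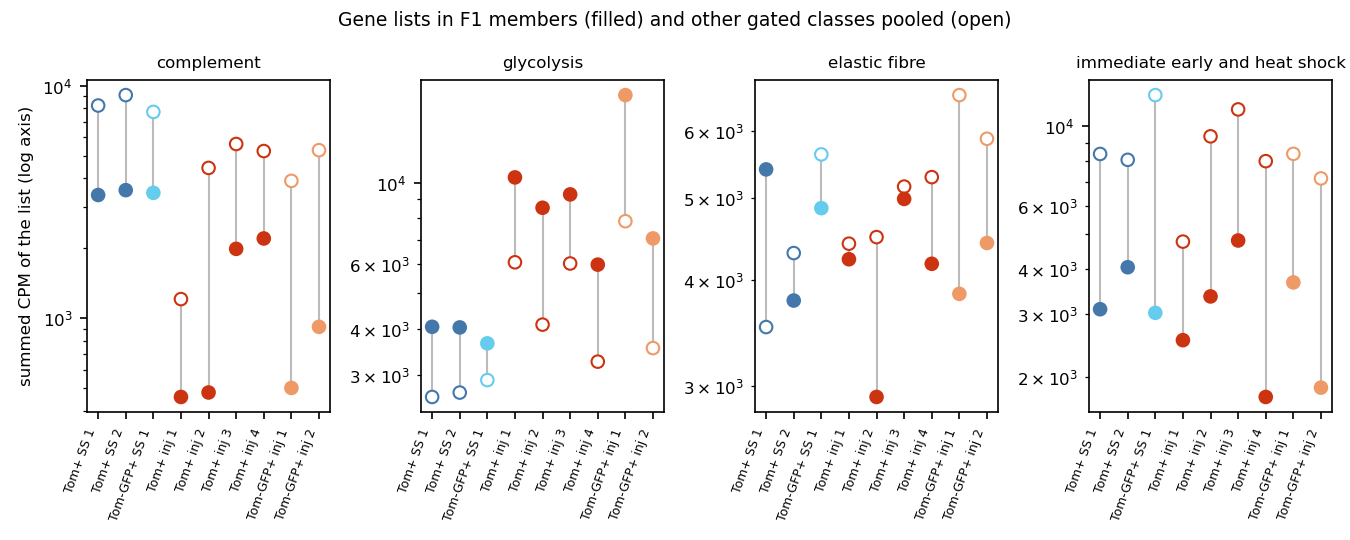
Summed level (CPM, log axis) of 4 gene lists by library in F1 members (filled) and in the other gated classes pooled (open), with SS for steady state, inj for injured and colour for lineage and state. Complement and immediate early genes are lower and glycolysis genes higher in members in 9 of 9 libraries, and elastic fibre genes are lower in 8 of 9.

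More genes of secreted signals were lower than higher. Of 16 chemokine and cytokine genes tested, 1 was higher (Tnfsf11, the osteoclast factor RANKL) and 5 lower, among them Cxcl13, Il6, Cxcl16 and Csf1 beside Ccl19 (median -0.44), and against F2 0 were higher and 7 lower (median -0.84). Tnfsf11 had a log2 fold change of 0.61 against F2 with adjusted p = 0.101 in edgeR's quasi-likelihood test. In the BMP and TGF-beta list (20 tested, 2 higher, 3 lower, median -0.37) Inhba and Fstl1 were higher, and Gdf10 and Id3 were among the lower. Against F2, Bmp2 (log2 2.27) and Tgfb1 (0.99) were higher with Inhba, and 7 were lower, led by Gdf10 (-2.05) and Tgfb3 (-1.28) (median -0.30). The Wnt list (16 tested, 0 higher, 2 lower, median 0.08) had Sfrp2 and Wnt5a lower. Against F2 1 was higher (Wnt2, 2.45) and 4 were lower, Sfrp2 (-3.57), Sfrp4 (-2.49), Sfrp1 (-1.78) and Wnt5a (-1.29), with a median of -0.60. Igf1 (log2 -2.71 against F2) and Igfbp4 (-1.43) were the 2 lower of 8 insulin-like growth factor genes tested (median -0.69), joined against F2 by Igf2r (-0.69, median -0.58), and of 6 fibroblast growth factor genes none was called in the mean contrast (median -0.32) and 2 were lower against F2 (Fgf10 -2.64 and Fgfr2 -1.74, median -0.42).

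Matrix genes are given by kind. Elastic fibre genes (18 tested, 2 higher, 6 lower, median 0.05) had Mfap4 (log2 -3.84 against F2), Mfap2 (-2.49) and Eln (elastin, -2.38) lower, and Ltbp2 (1.26) and Lox higher. Against F2, 1 was higher and 9 lower (median -0.48), and Lox did not pass (log2 0.21). Small leucine-rich proteoglycans (10 tested, 0 higher, 3 lower, median -0.17) had Podn (-1.84), Ogn (-1.63) and Dcn (-0.69) lower, with a median of -0.51 against F2. Basement membrane genes (12 tested, 0 higher, 2 lower, median -0.70) had Lama2 and Nid1 lower, and against F2 5 were lower, led by Lama2 (-1.73, median -0.73). Fibrillar collagens (8 tested, 3 higher, 0 lower, median 0.49) had Col5a1, Col5a2 and Col5a3 higher, of which only Col5a3 passed against F2 (log2 1.01, median of the list -0.12). Among wound matrix genes (14 tested, 6 higher, 0 lower, median 2.00), Timp1 (log2 1.43 against F2) and Cthrc1 (0.52) also passed against F2, where the median was 0.25. Matrix proteases and inhibitors (16 tested) had Timp1 higher and 4 lower (median -0.36), and against F2 9 were lower, among them Mmp2 (-1.15) (median -0.58).

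Families of the gate genes were read apart from the gate genes themselves. Of 8 annexins tested, 4 were higher and 0 lower (median 0.50): Anxa2 (log2 1.28 against F2), Anxa1 (1.13), Anxa5 (1.00) and Anxa3, which did not pass against F2 (0.27). The list's median against F2 was 0.27. Anxa1 was at 1154 to 2672 CPM in members and 604 to 886 CPM in other cells, with no overlap. Of 10 Ly6 and uPAR genes tested, 1 was higher (Plaur, the urokinase receptor, log2 2.03 against F2) and 0 lower (median -0.21), and against F2 3 were lower (Ly6h -4.24, Ly6e -0.51 and Ly6c1 -0.44, median -0.27). No nicotinic receptor subunit reached the level to be tested, and the 16 subunits summed to 0 to 4.10 CPM in members of any library. Of 4 junction and keratin genes tested, Gja1 (connexin 43) and Cdh13 were higher (median 0.22), and Cdh13 also against F2 (1.85), where Cdh11 was lower (-1.92) and the median was -0.26.

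Few markers of other cells were called. Of 9 lining genes tested, 1 was higher (Prg4, log2 2.76, adjusted p = 0.0404, edgeR's quasi-likelihood test), with a median of 1.75. Against F2 Prg4 had log2 0.81 with adjusted p = 0.312, and Cd44 passed instead (1.18). Prg4 was at 599.5, 1186 and 1613 CPM in steady-state members, at 5261, 2643, 637 and 1682 CPM in Tom+ injured and at 2659 and 1112 CPM in Tom-GFP+ injured members, and it was higher in members than in other gated cells in 8 of 9 libraries. Pan-fibroblast genes (10 tested, 2 higher, 3 lower, median 0.15) had Vim and Fn1 higher and Dcn, Pdgfra and Pdgfrb lower. Universal fibroblast genes (9 tested) had Anxa3 higher (median 0.16), tenocyte genes (8 tested) Tnmd lower (median 1.43), mural genes (7 tested) Cspg4 higher (median -0.39) and perineurial genes (3 tested) Slc2a1 higher (median 2.44). In the mean contrast nothing was called among 5 chondrocyte (median 2.50), 6 osteoblast (1.72) and 8 cell cycle genes (3.44), nor for the single immune, Schwann, adipocyte and skeletal muscle genes tested (-1.18, -1.24, -2.06 and -1.54). No endothelial or red blood cell gene was tested. Of 25 joint transcription factors tested, 1 was lower (Meox2, median -0.14), and against F2 1 was higher (Sox5, 1.09) and 6 lower, led by Egr2 (-2.53). Against F2 no universal gene was higher and Ly6c1 was lower (-0.44), and Perp (2.55) and Slc2a1 (0.79) were the 2 higher perineurial genes. Against F2 the medians were -0.21 for pan-fibroblast, -0.14 for universal, 0.81 for lining, -0.02 for tenocyte, 0.16 for mural, 1.75 for perineurial, -0.29 for transcription factor, 0.48 for chondrocyte, -0.01 for osteoblast and 1.44 for cell cycle genes, and Hapln1 (chondrocyte, 1.91) was higher and Lyz2 (immune, -1.23) and Fabp4 (adipocyte, -3.20) were lower.

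After injury, Postn and Cthrc1 were higher and Myoc was lower in Tom+ members, with either Tom+ steady-state library as the reference, while most other calls of named genes depended on that choice. Only Tom+ steady-state replicate 2 (24 members) reached the minimum of 10 cells per sum, so 4 injured libraries were set against 1, with the spread taken from the injured libraries. Of 5064 genes, 43 were called (0.849%), 15 higher (0.296%) and 28 lower (0.553%), and 770 had an unadjusted p under 0.05. Without Tom+ injured replicate 1, 111 genes were called, without replicate 2, 25, and without Tom-GFP+ injured replicates 1 and 2, which share the estimate of spread, 72 and 91. With at least 5 cells per sum, which admitted Tom+ steady-state replicate 1 and the Tom-GFP+ steady-state library (7 members each) and tested 5747 genes, 68 were higher and 90 lower, and C1qtnf3 (log2 3.61, adjusted p = 0.117) and Gm37376 (1.55, adjusted p = 0.49) did not pass in edgeR's quasi-likelihood test. With at least 5 cells and replicate 2 left out, so that replicate 1 was the Tom+ steady state, 7 of 5651 genes were called, 5 of them among the 43. Postn (log2 6.30), Cthrc1 (8.24) and Myoc (-7.90) were the named genes that still passed. Gsn (-3.17, adjusted p = 0.0592), Thbd (-3.66, adjusted p = 0.0592), Ptn (3.34, adjusted p = 0.0788), Angptl4 (9.37, fitted against 0 UMIs, adjusted p = 0.099), Pcolce2 (-3.75, adjusted p = 0.136) and Tspan5 (-2.39) kept their direction and did not pass in edgeR's quasi-likelihood test. C1qtnf3 (1.94), Ucp2 (1.91), Lrrc15 (1.80), Lamb1 (1.51), Nnmt (0.40), Dbp (-2.79) and Gpx3 (-0.56) did not pass either, and Gm37376 (-0.016) and Ifi27l2a (8.04, also fitted against 0 UMIs, adjusted p = 0.445) changed sign. Cytl1 and S100g, which had 1 and 0 UMIs in replicate 1, gave no value. Levels or UMIs of replicate 1 are printed below for each named gene except Ptn and Angptl4. In each injured library except Tom+ injured replicate 1 the file's gene list has a newer layout than in steady state, so layout and state are largely confounded. With layout as a block 37 genes were called, 24 of them among the 43.

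Postn, which encodes the matricellular protein periostin, had 1 UMI in members of Tom+ steady-state replicate 1 (13.0 CPM), 0 in replicate 2 and 3 in the Tom-GFP+ library (44.4 CPM). After injury it was at 1106, 1002, 907 and 747 CPM in Tom+ and at 1169 and 1280.0 CPM in Tom-GFP+ members. States did not overlap, and Tom+ injured members were at least 81.9-fold higher than a floor of 3 UMIs in replicate 2 (adjusted p = 0.000335, edgeR's quasi-likelihood test). Cthrc1, a secreted regulator of collagen matrix and cell migration, was at 13.0, 19.1 and 0 CPM in steady state, then at 3986, 3357, 4888 and 2272 CPM in Tom+ and at 3390.3 and 1719 CPM in Tom-GFP+ injured members. Its Tom+ log2 fold change was 7.42 (SE 0.77, adjusted p = 0.00324, edgeR's quasi-likelihood test), and it was detected in 144 of 145 members of Tom+ injured replicate 1.

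C1qtnf3, an adipokine-like secreted protein, was at 91.2, 0 and 74.0 CPM in steady-state members and at 319, 499.7, 217 and 221 CPM in Tom+ injured ones, at least 27.4-fold over the floor of replicate 2. Against replicate 1 the difference was far smaller, as these values show. Of the other named increases, Gm37376 had 0 UMIs in replicate 2 and the rest had 1 or 2. From pooled UMIs, the injured to steady-state ratios, with their 95% counting intervals, were 35.8 (6.40 to 1415) for Lrrc15, a membrane protein of matrix-producing fibroblasts, 35.9 (6.43 to 1421) for Ucp2, a mitochondrial carrier, and 28.2 (7.79 to 233) for Ptn, the growth factor pleiotrophin. They were 24.3 (4.34 to 962) for Lamb1, a laminin chain, 12.1 (3.34 to 100.4) for Angptl4, a lipase inhibitor, and 11.7 (3.21 to 96.5) for Nnmt, a nicotinamide methyltransferase. In Tom+ steady-state replicate 1, Lrrc15 was at 52.1, Ucp2 at 39.1, Lamb1 at 39.1 and Nnmt at 78.2 CPM, closer to the injured libraries. Nnmt in replicate 1 overlapped the injured range of 72.3 to 117 CPM. The tenth, Gm37376, was at 143 CPM in replicate 1 and 77.3 to 196 CPM after injury. In edgeR's quasi-likelihood test Lrrc15 (log2 5.31, adjusted p = 0.0804), Lamb1 (4.51, adjusted p = 0.0903), Angptl4 (3.70, adjusted p = 0.0507) and Nnmt (3.32, adjusted p = 0.0835) did not pass without Tom+ injured replicate 2. Lrrc15 (5.26, adjusted p = 0.0627) and Gm37376 (9.94, adjusted p = 0.0536) did not without Tom-GFP+ injured replicate 1, Nnmt (3.47, adjusted p = 0.0728) without Tom+ injured replicate 3, and Nnmt (3.59, adjusted p = 0.0502) and Gm37376 (9.94, adjusted p = 0.0551) without replicate 4. With all libraries the log2 fold changes were 5.25 for Lrrc15, 4.55 for Lamb1, 3.63 for Angptl4, 3.46 for Nnmt and 9.86 for Gm37376.

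**Figure D4:**
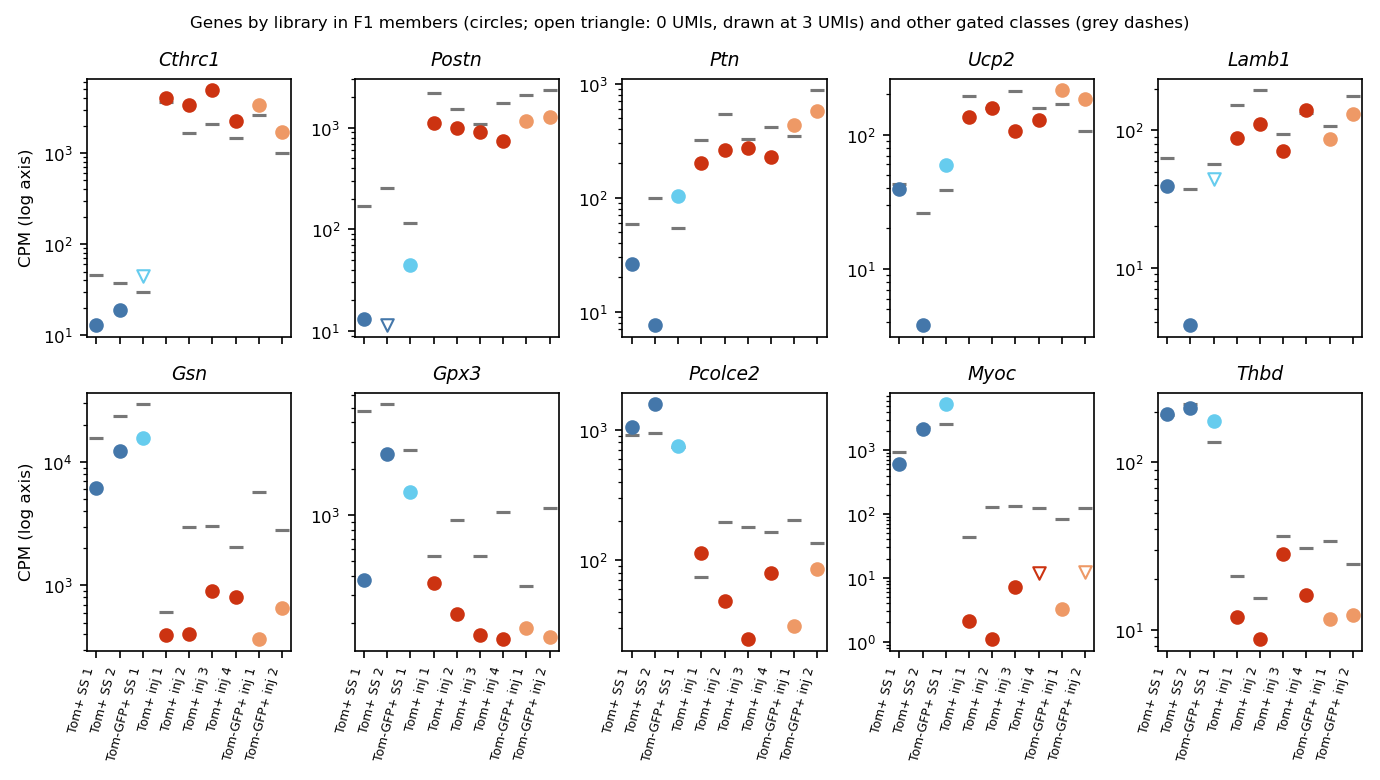
Level (CPM, log axis) of 10 genes by library in F1 members (circles, or an open triangle at 3 UMIs where none was counted) and in the other gated classes pooled (grey dashes), with SS for steady state and inj for injured. Cthrc1 and Postn lie above, and Myoc, Gsn, Thbd and Pcolce2 below, their steady-state values in all 6 injured libraries.

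By log2 fold change the losses were led by Cytl1 (-10.08), which rested on 1 cell (below). Myoc, which encodes myocilin, a secreted glycoprotein, had the smallest adjusted p. It was at 599.5, 2162 and 5237 CPM in steady-state members and at 2.12, 1.10, 7.11 and 0 CPM in Tom+ and 3.30 and 0 CPM in Tom-GFP+ injured members (Tom+ log2 -10.03, SE 0.47, adjusted p = 1.3e-05, edgeR's quasi-likelihood test). In replicate 1, 1 of 7 cells held 95.7% of the Myoc UMIs, while in replicate 2 it was detected in 15 of 24 members. Gsn, an actin-severing protein, was at 6164, 12395 and 15814 CPM in steady state. It was at 399, 400.4, 900.0 and 803 CPM in Tom+ injured and at 368 and 652 CPM in Tom-GFP+ injured members (Tom+ log2 -4.45, SE 0.47, adjusted p = 0.00499, edgeR's quasi-likelihood test).

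Of the other named losses, 4 had more than 3 UMIs in both Tom+ steady-state libraries. Pcolce2 (a collagen-processing enhancer) was at 1043 and 1565 CPM against 24.9 to 113 CPM after injury, Thbd (thrombomodulin) at 195 and 210.5 CPM against 8.83 to 28.5 CPM, and Tspan5 (a tetraspanin) at 65.2 (5 UMIs) and 111 CPM against 8.03 to 21.3 CPM. Gpx3 (a secreted glutathione peroxidase) was at 378 and 2507 CPM against 157 to 360 CPM, so that replicate 1 nearly met the injured range. The calls of Pcolce2 (log2 -4.46), Tspan5 (-3.32) and Ifi27l2a (-5.04) were lost without Tom+ injured replicate 2, those of Pcolce2 (-4.60) and Ifi27l2a (-4.97) without replicate 4, and that of Ifi27l2a without Tom+ injured replicate 3 (-4.84) or Tom-GFP+ injured replicates 1 (-4.84) or 2 (-4.77). Dbp (a clock-controlled transcription factor) was at 39.1 CPM, or 3 UMIs, in replicate 1 and 149 CPM in replicate 2, against 0 to 10.7 CPM. The other 3 rested on few cells of replicate 2: all 261 Cytl1 UMIs came from 1 cell, 84.6% of the 39 S100g UMIs from 1 cell and 55.0% of the 282 Ifi27l2a UMIs from 1 cell, and replicate 1 had 1, 0 and 0 UMIs of them.

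Among the lists, wound matrix had the most calls. Of 14 tested, 3 were higher (Postn, Cthrc1 and Lrrc15) and 0 lower, with a median log2 of 3.88, or 3.42 with the 2 genes that had no steady-state UMI set at their bound, beside 0.04 for all genes tested. Timp1 was at 143, 210.5 and 148 CPM in steady-state members and 1533 to 6452 CPM in all injured libraries. None of 8 fibrillar collagens passed (median 1.23): Col1a1 was at 2059, 2250 and 2071 CPM in steady state and 7269 to 12156 CPM after injury, with no overlap, yet its Tom+ log2 of 1.72 had adjusted p = 0.0901 in edgeR's quasi-likelihood test. Single members of other lists passed: Lamb1 among 9 basement membrane genes, Efemp2 among 16 elastic fibre genes, and Adamts5, lower, among 15 matrix proteases and inhibitors. Csf1, the macrophage growth factor, was the 1 lower of 11 chemokine and cytokine genes. No call was made among 13 glycolysis genes (median 1.01), 11 complement genes (median -0.96), 14 immediate early genes (median -0.56) or 10 pan-fibroblast genes (median 0.20). The remaining lists had no call either, though the sums of osteoblast and mural markers were higher in all 6 injured libraries than in steady state. So were the sums of wound matrix, fibrillar collagen, glycolysis, and matrix protease and inhibitor genes. The last list includes the inhibitor Timp1, also a wound matrix gene and itself higher in all 6, and proteases were not summed without the inhibitors. The universal, complement, fibroblast growth factor and transcription factor sums were lower in all 6. Fibrillar collagens summed to 9276 to 12681 CPM in steady-state members and 23288 to 40129 CPM in injured ones, glycolysis genes to 3654 to 4053 CPM and 5981 to 17290 CPM, and complement genes to 3389 to 3555 CPM and 459 to 2204 CPM. Osteoblast genes summed to 0 to 34.4 CPM in steady-state members and to 169 to 1450 CPM in injured ones, with Spp1 the most abundant gene and Dmp1 at 0 in every library (0 of 3 tested passed, median log2 7.06). Mural genes summed to 14.8 to 42.1 CPM and then to 145 to 938 CPM, with Acta2 the most abundant, Rgs5 at 0 to 4.10 CPM and Myh11 at 0 in 8 of 9 libraries (0 of 3 tested passed, median 4.42, or 2.20 with the gene that had no steady-state UMI set at its bound). The part of such cells in the injury result was not tested. Cell cycle genes summed to 39.1, 53.6 and 14.8 CPM in steady-state members and to 601, 617, 370.0 and 52.2 CPM in Tom+ and 651 and 45.1 CPM in Tom-GFP+ injured ones, high in 4 of 6 injured libraries, and none of 7 passed.

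With all 3 gate genes required, Cthrc1 (log2 6.84), Ucp2, Ptn, Lamb1, Myoc (-9.27), Gsn (-4.94), Thbd, Dbp, Gpx3, Pcolce2, S100g and Tspan5 still passed. Postn (log2 11.11, adjusted p = 0.383), C1qtnf3 (9.57, adjusted p = 0.566), Gm37376 (9.51), Lrrc15 (4.16, adjusted p = 0.0542), Nnmt (2.60), Angptl4 (1.86) and Ifi27l2a (-3.94) did not, in edgeR's quasi-likelihood test. Their direction was kept, and the values of Postn, C1qtnf3 and Gm37376 are fitted against 0 steady-state UMIs. Among injured members, those with Slurp1 had 544 CPM of Postn and those without had 1346 CPM, and Sbsn was at 385 and 163 CPM. These are pooled values with no test.

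In Tom-GFP+ members the comparison had 1 steady-state library of 7 cells and 2 injured ones, so the spread of the steady state was assumed to be that of the other groups and was not measured. Of 5747 genes, 13 were called (0.226%), 4 higher (0.0696%) and 9 lower (0.157%), and 942 had an unadjusted p under 0.05. The injured files have the newer gene list layout and the steady-state file the older one. With layout as a block 7 genes were called, 5 of them among the 13. On thinned cells 12 were called, 3 of them among the 13. Cthrc1 was at least 57.6-fold higher than a floor of 3 UMIs, Postn had a pooled ratio of 27.1 (9.23 to 131) and Abracl, a small actin-regulating protein, of 23.4 (4.17 to 927). Col1a1 was at 2071 CPM against 7269 and 12156 CPM (log2 2.32, adjusted p = 0.0386, edgeR's quasi-likelihood test). Named losses were Myoc, Gsn (log2 -4.87), Podn (237 against 8.26 and 8.21 CPM), Efhd1 (177.5 against 0 and 4.10 CPM) and Krtdap, all of whose 35 steady-state UMIs came from 1 cell. Without Tom-GFP+ injured replicate 2, Myoc (log2 -10.51) and Gsn (-5.37) no longer passed. Efhd1 was lost without Tom+ steady-state replicate 1 (-7.00) or 2 (-6.92) or Tom+ injured replicate 3 (-6.98) or 4 (-6.94), and Col1a1 was lost without any of 5 Tom+ libraries (replicate 1 injured excepted), at log2 2.25 to 2.32. Without Tom-GFP+ injured replicate 1, Myoc (-14.88), Gsn (-4.52), Podn (-4.74), Efhd1 (-5.30), Krtdap (-11.54) and Abracl (4.36) no longer passed and 4 genes were called. Podn (-4.73), Abracl (4.55), Efhd1 (-6.92), Myoc (-10.97) and Krtdap (-8.53) had these values with all libraries. Of the lists, wound matrix had 2 of 14 higher (median 3.66, or 2.27 with the 4 genes at 0 in a group set at their bound).

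No gene differed between lineages in its response to injury (0 of 5747, 0%, in edgeR's quasi-likelihood test and 0 by DESeq2, with 276 at an unadjusted p under 0.05). The 3 genes with the smallest p, none past the threshold, were Nfib, Abracl and Cnih4 (adjusted p = 0.921 for each). Nfib, a nuclear factor I transcription factor, was at 385 CPM in Tom-GFP+ steady-state members and 41.3 and 32.8 CPM after injury, against 117 and 145 CPM and 66.2 to 84.3 CPM in Tom+. Simulated 4-fold differences were found for 4.48% of genes at this size, so a missing call says little.

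Averaged over states, the lineage reporter tdTom was the 1 gene of 5747 called (0.0174%, log2 5.24, adjusted p = 0.000363, edgeR's quasi-likelihood test), with 340 at an unadjusted p under 0.05. It was at 282 to 524 CPM in Tom+ and 4.10 to 14.8 CPM in Tom-GFP+ members. On thinned cells 0 genes were called, so the call of tdTom was lost. In injured libraries alone 4 of 5064 were called (0.079%), 2 higher (0.0395%) and 2 lower (0.0395%) in Tom+ members, and 213 had an unadjusted p under 0.05. On thinned cells the 1 gene called was not among these 4. Fmod, which encodes the collagen-binding proteoglycan fibromodulin, was at 244, 212, 125 and 193 CPM in Tom+ and at 0 and 8.21 CPM in Tom-GFP+ members (log2 6.22, adjusted p = 0.0375, edgeR's quasi-likelihood test), with 97.1% of the UMIs of Tom+ injured replicate 3 in 1 cell. In steady state it was at 0 and 371 CPM in Tom+ and 163 CPM in Tom-GFP+ members. Ccl8, a monocyte chemokine, was at 0.265, 0, 0 and 4.01 CPM in Tom+ and 47.9 and 131 CPM in Tom-GFP+ members, and Pola2, a subunit of DNA polymerase alpha, at 31.5, 12.1, 46.2 and 20.1 CPM against 234 and 345 CPM. The calls of Fmod, Ccl8 and Pola2 were lost without Tom+ injured replicate 1 or without Tom-GFP+ injured replicate 1 (log2 5.99 and 4.47 for Fmod, -6.44 and -7.98 for Ccl8, -3.65 and -3.79 for Pola2). Fmod was also lost without Tom+ injured replicate 2 (6.15) or 4 (6.23), Ccl8 without Tom+ injured replicate 2 (-7.11) or Tom-GFP+ injured replicate 2 (-6.46), and Pola2 without Tom+ injured replicate 4 (-3.39) or Tom-GFP+ injured replicate 2 (-3.15).

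Whether the injury response differed between members and other gated cells was tested with 1 Tom+ steady-state library and 4 injured ones. Simulated 4-fold differences were found for 11.9% of genes and 2-fold ones for 0%, so a missing call says little. The difference between members and the other gated cells in their Tom+ injury effect passed for 6 of 10392 genes (0.0577%), 2 higher (0.0192%) and 4 lower (0.0385%), with 663 at an unadjusted p under 0.05. Postn is one of them, and its steady-state level in other gated cells was 172, 253 and 116 CPM against 13.0, 0 and 44.4 CPM in members, and 1094 to 2342 CPM after injury. Myoc fell to 43.0 to 133 CPM in other gated cells of the injured libraries, from 949, 2303 and 2538 CPM, and to 7.11 CPM or less in members (log2 of the difference -4.77, adjusted p = 0.000693, edgeR's quasi-likelihood test). Tspan5 was at 21.4, 23.3 and 33.9 CPM in steady-state other cells and 17.6 to 25.6 CPM after injury, so its members started higher (log2 of the difference -2.89). Its call was lost without Tom+ injured replicate 1 (-2.86).

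Marcks, an actin-linking substrate of protein kinase C, was lower in members than in other gated cells in all 9 libraries, at 65.2, 23.0 and 163 CPM against 330.4, 350.4 and 346 CPM in steady state. In Tom+ injured libraries it was at 79.2, 96.0, 85.4 and 161 CPM in members and 186, 334, 193 and 449 CPM in other cells (log2 of the difference 2.57, adjusted p = 0.0438, edgeR's quasi-likelihood test). Replicate 1 of the steady state, outside that fit, was nearer to the injured members than replicate 2. The call was lost without Tom+ injured replicate 3 (2.51) or 4 (2.61). Clu, the chaperone clusterin, was at 13.0, 654 and 29.6 CPM in steady-state members, with 46.8% of the UMIs of replicate 2 in 1 cell (log2 of the difference -2.76), and it changed sign when all 3 gate genes were required (2.24). Cytl1 rested on the single cell named above. With all 3 gate genes required, 8 genes were called and 0 of these 6 were among them. The difference was then 8.84 for Postn, a fitted value, -3.89 for Myoc, -3.06 for Tspan5 and 1.30 for Marcks, and Cytl1 was not among the genes tested. With at least 5 cells and replicate 2 of the steady state left out, Myoc (-3.87) was the 1 of the 6 that passed, Postn (3.33), Tspan5 (-1.93), Marcks (1.30) and Cytl1 (-0.80) did not, and Clu changed sign (2.75).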

How the data were processed

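Cells of 9 libraries (10x Genomics 5' chemistry) were analysed from deposited UMI count matrices, which the authors made with Cell Ranger against GRCm38.p6, per the submitters' processing notes. Headers of 5 files name Cell Ranger 3.0.2. Libraries held 2866464 to 15033902 UMIs, and the members' sums 67596 to 3777331. No value was normalized before deposit. Doublets were not removed, and leaving out the highest 5% of Scrublet scores per library was an alternative.

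Members, gene lists and tests were chosen with earlier results of these data known. UMIs were summed per library and class and tested with edgeR 4.0.16 (R 4.3.3, TMM, filterByExpr, quasi-likelihood F test, Benjamini-Hochberg adjustment), and DESeq2 1.42.0 was an alternative. Cells were read with Python 3.11.15, scanpy 1.11.5, numpy 2.4.6, pandas 2.3.3 and scipy 1.17.1, and figures drawn with matplotlib 3.10.9. The planned minimum of 10 cells per sum left no Tom-GFP+ steady-state library, so at least 5 cells were used for the Tom-GFP+ injury effect, the interaction and the lineage effect.

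Named genes were the 12 highest and 12 lowest called genes with 1 sign in every library for the class contrast, the 10 highest and 10 lowest without overlap between the libraries fitted (1 in steady state) for Tom+ injury, and up to 5 each way elsewhere, or the 3 with the smallest p. For Tom+ injury 3067 of 5064 genes tested had no overlap, and so had all 43 called, so that condition removed none. Other genes named are members of the gene lists. Positions are from GENCODE vM21, in which 54409 of 54532 Ensembl identifiers were found. Binomial and ratio intervals (exact, 95%) cover counting error only. On simulated data with 200 changed genes, 4-fold changes were recovered for 85.1% of genes in the class contrast, 47.8% for Tom+ injury, 2.99% for Tom-GFP+ injury and 4.48% for the interaction. The labels do not say which Tom-GFP+ library matches which Tom+ library, so no pairing was used.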

Additional observations from a re-analysis of the deposited data

Results flagged for a closer look

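In 12 of 64 sets of 4 Tom+ injured libraries, 1 library lay far from the other 3 (gap over range above Dixon's critical value for 4 samples). The nominal rate of about 1 in 20 assumes independent, normally distributed values. These are CPM of selected genes, some from few UMIs, so the count of 12 cannot be read against that rate. Tom+ injured replicate 4 was high for Apoe (24.1 CPM, others 1.10 to 3.56) and Gm2564 (145 CPM, others up to 17.8), and low for Il1rl1 (16.1 CPM, others 96.9 to 108). It had 12.0 CPM of Ccl19 (others 0), 4.01 CPM of Ccl8 (others up to 0.265) and 4.01 CPM of Krtdap (others up to 0.529), from 3, 1 and 1 UMIs. Tom+ injured replicate 3 was low for Anxa8 (487 CPM, others 715 to 759) and high for Tspan5 (21.3 CPM, others 8.03 to 10.1), and it had 7.11 CPM of Lsamp from 2 UMIs (others up to 1.06). Tom+ injured replicate 1 was high for Msmo1 (44.5 CPM, others 7.11 to 8.03). It had 3.18 CPM of S100g and 0.265 CPM of Tmem204 (1 UMI), both 0 in the others. In the others 3 UMIs would be 3.31 to 12.0 CPM, so these zeros do not show a lower level, and the values of Ccl19, Ccl8, Krtdap and Lsamp, at 3 UMIs or fewer, do not show a higher one.

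The Tom+ injury effect differed between F1 members and the other gated cells for 6 genes (edgeR's quasi-likelihood test of the difference). On the log2 scale the difference was 10.47 for Postn, a fitted value against no steady-state UMI in members, 2.57 for Marcks, -2.76 for Clu, -4.77 for Myoc, -6.18 for Cytl1, which rests on 1 cell, and -2.89 for Tspan5.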

How the results depend on the processing

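The class contrast (863 genes) gave 324 with all 3 panel genes, 498 on thinned cells, 207 with at least 20 cells per sum, 1667 with other classes pooled and 1568 against F2 in a fit of its own, and 659 to 862 with each library left out. Tom+ injury (43) gave 90 by DESeq2, 376 with no filter on low counts, 181 with all 3 panel genes, 184 on thinned cells, 158 with at least 5 cells and 7 with at least 5 cells and without Tom+ steady-state replicate 2, and 25 to 111 with each library left out. Tom-GFP+ injury (13) gave 77 by DESeq2, 216 with no filter, 12 on thinned cells (3 of the 13) and 7 with the gene list layout as a block (5 of the 13), and 4 to 67 with each library left out. The interaction (0) gave 3 with no filter and 0 with each library left out. The lineage effect (1) gave 2 by DESeq2, 31 with no filter, 0 on thinned cells and 1 to 2 with each library left out. In injured libraries (4) it gave 14 by DESeq2, 80 with no filter, 1 on thinned cells (0 of the 4), 8 with at least 20 cells (2 of the 4), and 1 to 12 with each library left out. The difference in injury effect between members and other cells (6) gave 50 with no filter, 11 with stricter cell filters, 28 on thinned cells, 31 with at least 20 cells, 22 with at least 5, 10 against F2, 46 with both lineages, and 7 to 19 with each library left out. Of the 6 genes, 1 was called on thinned cells, 4 with at least 5 cells and 3 with both lineages. All 6 were called with at least 20 cells and against F2. The Tom+ injured minus steady-state share was 11.3 percentage points, 28.6 with ties allowed, 7.94 on thinned cells, 4.68 over all kept cells, 2.48 with all 3 panel genes, and 5.07 to 14.3 with each library left out. With the replicate number as a block, which marks no known pairing (with 2 Tom-GFP+ injured libraries the deviations mirror each other and cannot show one), the calls were 100 (Tom+ injury), 64 (Tom-GFP+ injury) and 2 (lineage). Gm37376 turned to log2 -0.062 on thinned cells and Clu to 2.24 with all 3 panel genes, and with at least 5 cells and without Tom+ steady-state replicate 2 Gm37376 turned to -0.016, Ifi27l2a to 8.04 and Clu to 2.75. The cause was not tested. The fits with at least 5 cells, the class contrast against F2 alone or with classes pooled, and the fit with both lineages were chosen after seeing the data. At 10 cells per sum no fit was possible without Tom+ steady-state replicate 2 for Tom+ injury or its difference from other cells. The Tom-GFP+ injury, interaction and lineage comparisons were fitted with at least 5 cells. They had no fit without the Tom-GFP+ steady-state library, with all 3 panel genes or with at least 20 cells. The lineage effect in injured libraries had no fit with all 3 panel genes. Steady-state sums of 67596 to 261309 UMIs limit what low genes can show.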
